A study of Rosa roxburghii with 15 samples.

Results

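Mature fruit of *Rosa roxburghii* Tratt, a wild rose whose fruit is known for its ascorbic acid, was compared with the flower of the same species at the level of the transcriptome. The mature fruit group held 3 libraries of fruit harvested 120 days after flowering, and the flower group held 3 libraries of open flowers. These 6 libraries were chosen by their sample titles from 15, and the other 9 (leaf, stem and young fruit at 50 days, 3 each) served only for the common estimate of spread and for the levels given as context. All plants were wild seedlings grown in pots outdoors at one university in Guizhou, with no treatment in any group. Flowers were collected in May and mature fruits in September, so organ and season cannot be told apart in any comparison that follows. In such whole organs, fewer cells of a type and less RNA per cell cannot be told apart either. The sample labels speak of 2 biological replicates, each pooled from 3 plants, and of a TruSeq kit, whereas the methods of the study speak of 3 biological replicates and strand-specific NEBNext libraries. The 3 libraries of a tissue were therefore taken as separate samples, and the p-values cover only the spread between them, which may be technical in part.

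Expression was given as FPKM, fragments per kilobase of transcript scaled to the mapped fragments of the library, for each of 63727 unigenes, the genes of a de novo assembly made without a genome. The sources pair gene names with 163 unigenes, all of them MYBs, each named after its best match, which for 7 was described as a rose sequence. A name therefore states a likeness in sequence and not a measured function. MYBs are DNA-binding proteins that carry 1 or more MYB repeats, and in plants the members with 2 repeats (R2R3) form the largest branch of the family. Name and type can differ. The study's table types MYB10 DN149070_c1_g2 as atypical, MYB36-like DN149746_c2_g7 as R1 and MYB306-like DN144626_c1_g2 as 4R. They are known for switching on or off the pathways of flavonols, anthocyanins, lignin and wax, and for guiding the development of petals, stamens, hairs and xylem. Some of them act as repressors of the same phenylpropanoid pathway that others activate, and pigment and tannin in the flowers and fruits of the rose family are known to depend on both kinds.

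The designed qRT-PCR primers of 5 MYBs are shown first because these are the MYBs with primers that passed the test below. All 5 had higher levels in mature fruit, but the MYBs with primers include the 10 most abundant MYBs of mature fruit. Such a set favours calls of higher, so the shared direction is not a result about the MYBs. The primer pairs mark the transcript stretches by which these genes can be measured again, and each line runs 5′ to 3′.
MYB4, DN142862_c0_g1, forward: ggtgtgccagtaattcttgat
MYB4, DN142862_c0_g1, reverse: gttgtagacttcgttggatga
MYB308, DN144022_c3_g4, forward: gtgtatgaagcctgatgatgagat
MYB308, DN144022_c3_g4, reverse: tgcgtcgttgcggtaaga
MYB6-like, DN144339_c1_g4, forward: atgcctcgctgctctgaa
MYB6-like, DN144339_c1_g4, reverse: tgtggtgacctgaacttgga
MYB3, DN147128_c3_g4, forward: aatcacaaccaccaccaacac
MYB3, DN147128_c3_g4, reverse: gcttcagatagacatcacattcca
putative MYB, DN143733_c1_g1, forward: agcaatagcaccagtctccaa
putative MYB, DN143733_c1_g1, reverse: cagtagcagatgattccacaaca
The remaining 7 of the 12 MYBs with primers were not called between mature fruit and flower.

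Before the comparison, the 6 libraries were set against each other. Pearson's r of log2(FPKM + 0.1) over all unigenes was 0.907 to 0.963 among the mature fruit libraries, 0.963 to 0.964 among the flower libraries and 0.734 to 0.801 between the tissues. Mature fruit library 1 stood apart from libraries 2 and 3, which shared 2792 unigenes listed at 0 in the other 13 libraries, against 68 and 62 for the other pairs of mature fruit libraries. These 2792 unigenes made up 0.966% and 0.841% of the summed FPKM of libraries 2 and 3, and their part in the results was not tested. They were above 0 in 2 libraries alone, so none of them could pass the filter of the test. Of the 3 MYBs whose best match is an insect, DN125764_c0_g1 had 0, 0.546 and 1.07 FPKM in mature fruit, against 0 in all flower libraries. DN133537_c0_g1 had 0, 0.149 and 0.354 FPKM in mature fruit, against 0 in all flower libraries. DN28565_c0_g1 was listed at 0 in mature fruit, against 0.140, 0.0322 and 0.0320 FPKM in flower. None of the 3 insect matches passed the filter. Main counts are given below also without library 1 and without libraries 2 and 3.

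The first question was how far the transcriptome of the mature fruit differs from that of the flower. Of 51175 unigenes above 0.1 FPKM in at least 3 of the 15 libraries, 17352 (33.9%) were called, that is they had a Benjamini-Hochberg adjusted p of at most 0.01 in limma and a log2 fold change of at least 1 in size. Mature fruit was higher than flower for 6875 of them (13.4% of those tested) and lower for 10477 (20.5%). At a log2 fold change of at least 4 in size, 1135 unigenes were higher and 2287 lower. Without mature fruit library 1 the test called 16634 unigenes, 6358 higher and 10276 lower. Without libraries 2 and 3 it called 12883, 5015 higher and 7868 lower, with the lone mature fruit library assumed to vary like the other groups. All 3 mature fruit libraries lay above all 3 flower libraries for 12028 unigenes tested (23.5%) and below them for 15901 (31.1%). The breadth of expression overlapped between the tissues. Unigenes of at least 1 FPKM numbered 22274 ± 457 in mature fruit and 22964 ± 242 in flower (SD, n = 3 each, two-sided exact permutation p = 0.2, where 0.1 is the smallest p that 3 against 3 can give). At 10 FPKM or more there were 8876 ± 238 unigenes in mature fruit and 9715 ± 54.8 in flower, without overlap (exact permutation p = 0.1). The 10 most abundant unigenes held 9.92 ± 0.92% of the summed FPKM in mature fruit and 6.76 ± 0.98% in flower, again without overlap (exact permutation p = 0.1).

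The most extreme unigenes outside the MYBs have no name in the sources, and only 4 are given. DN148682_c1_g4 had 656, 1490.3 and 1534 FPKM in mature fruit, against 0.212, 0.230 and 0.281 FPKM in flower, and averaged 6.71 FPKM in young fruit. Its level in mature fruit library 1 was less than that in libraries 2 and 3, although all were far above flower (log2 fold change 11.72, SE 0.29, adjusted p = 3.05e-12). DN146851_c7_g2 had 546, 725 and 694 FPKM in mature fruit, against 0.1504, 0.376 and 0.332 FPKM in flower, with 238 FPKM on average in young fruit. The reverse held for DN117407_c0_g1, at 0.249, 0.275 and 0.332 FPKM in mature fruit, against 1458, 1608 and 1546 FPKM in flower (log2 fold change -11.97, SE 0.12, adjusted p = 9.72e-15). DN141514_c0_g1 showed the same order, with 0.0673, 0.0755 and 0.0753 FPKM in mature fruit, against 519.8, 524 and 487 FPKM in flower. A further 3096 unigenes were above 0 in every mature fruit library and listed at 0 in every flower library, and 4639 were the reverse, of which 565 and 968 had at least 1 FPKM in all 3 libraries of the tissue. Without mature fruit library 1 the first count was 7575.

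**Figure D1:**
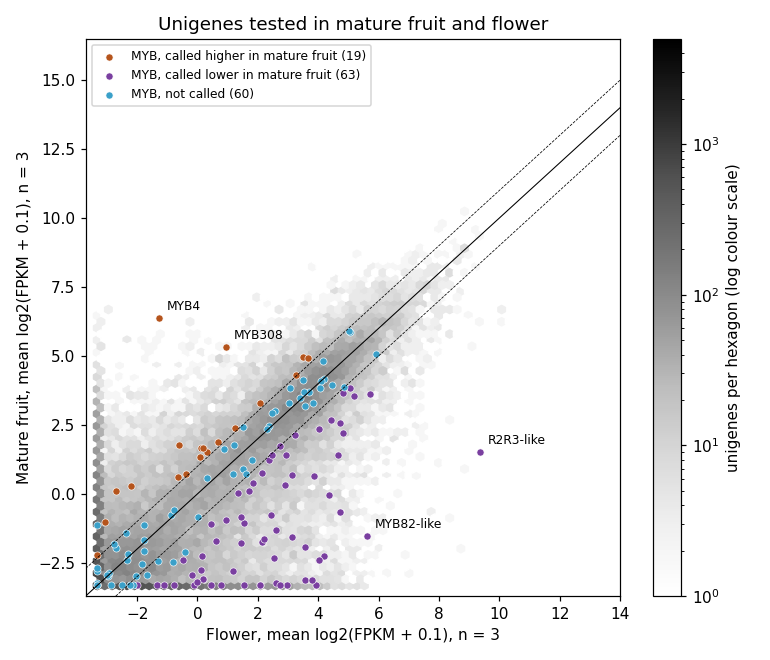
Mean log2(FPKM + 0.1) in mature fruit (y axis, n = 3) against flower (x axis, n = 3) for the 51175 unigenes tested, as grey hexagons with a log colour scale, and the 142 MYBs tested as points coloured by call. The solid line marks equal levels and the dashed lines a log2 fold change of 1 in size; 63 MYBs lie in the lower set, 19 in the higher set, and MYB4 stands far above the line while R2R3-like DN145829_c0_g2 stands far below it.

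Of the 163 MYBs, 142 passed the filter, and 82 of these (57.7%) were called, 19 higher and 63 lower in mature fruit. The share called higher was 13.4%, as over all unigenes tested, whereas the share called lower was 44.4% against 20.5% over all unigenes tested. The counts of the groups below are to be read beside these shares, since many groups hold few MYBs. The median log2 fold change of the MYBs tested was -0.91, against 0 over all unigenes tested. Among unigenes averaging at least 1 FPKM over the 6 libraries, 62 of 91 MYBs (68.1%) and 43.2% of 23675 unigenes were called. In that stratum 52.7% of the MYBs and 25.4% of the unigenes were called lower, and the medians were -1.12 and -0.11. A library scaling by the median of ratios raised the median of these unigenes by 0.11 on the log2 scale and called 20 MYBs higher and 61 lower. Without mature fruit library 1, 15 MYBs were higher and 62 lower, and without libraries 2 and 3 there were 17 higher and 53 lower. A pseudocount of 1 in place of 0.1 called 8 MYBs higher and 45 lower, and a test against a fold of 2 called 6 higher and 48 lower. The 4 MYBs called higher under both were MYB4 (DN142862_c0_g1), MYB308 (DN144022_c3_g4), MYB6-like (DN144339_c1_g4) and MYB12b (DN145308_c4_g7). Of the 82 called MYBs, 70 kept their call without each of the 6 libraries in turn, 1 (DN146459_c2_g4) was not tested without a flower library, and the other 11 are named with their values in the paragraphs on their groups.

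At a log2 fold change of at least 2 in size, 6 MYBs were called higher and 44 lower, beside 4028 unigenes higher and 6819 lower among all those tested. At 4 or more there were 2 MYBs higher and 19 lower, beside 1135 unigenes higher and 2287 lower. Among the MYBs tested, 25 were listed at 0 in all 3 libraries of 1 tissue or of both, and no fold change is given for them. Over the 117 that were above 0 in at least 1 library of each tissue, 68 (58.1%) were called, against 33.7% of the 33493 unigenes of that kind. Their median log2 fold change was -0.86, against -0.12 over those unigenes. Among all 163 MYBs, MYB63 (DN147741_c0_g1) was the only one above 0 in every mature fruit library and at 0 in every flower library. In the opposite class there were 14 MYBs, among them the insect match DN28565_c0_g1, which was not tested. Over all 63727 unigenes the 2 classes held 3096 and 4639, so these counts are not read as a trait of the MYBs. Of the 14, 8 were at 1 FPKM or more in every flower library, beside 968 of all unigenes. They were the MYB82-like DN146459_c2_g8 and DN146459_c2_g9, MYB10, a MYB46, a MYB306-like, a MYB5-like, MYB-like J and MYB-like Q unigene.

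Summed over the 163 MYBs, FPKM was 773, 767 and 753 in the mature fruit libraries, against 1706.0, 1729.9 and 1706.1 in the flower libraries. The tissues did not overlap, and the mean was 765 ± 10.5 in mature fruit and 1714 ± 13.8 in flower (SD, n = 3 each, ratio 0.446, exact permutation p = 0.1, the smallest possible). A single MYB, the R2R3-like DN145829_c0_g2, accounted for 38.5% of the flower sum. Without it the sums averaged 762 ± 11.7 in mature fruit and 1053 ± 12.3 in flower, a ratio of 0.723, still without overlap (exact permutation p = 0.1). MYBs of at least 1 FPKM numbered 66.7 ± 0.58 in mature fruit and 94.0 ± 1.0 in flower. By the tissue means, 60 MYBs reached 1 FPKM in both tissues, 7 in mature fruit alone and 34 in flower alone.

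**Figure D2:**
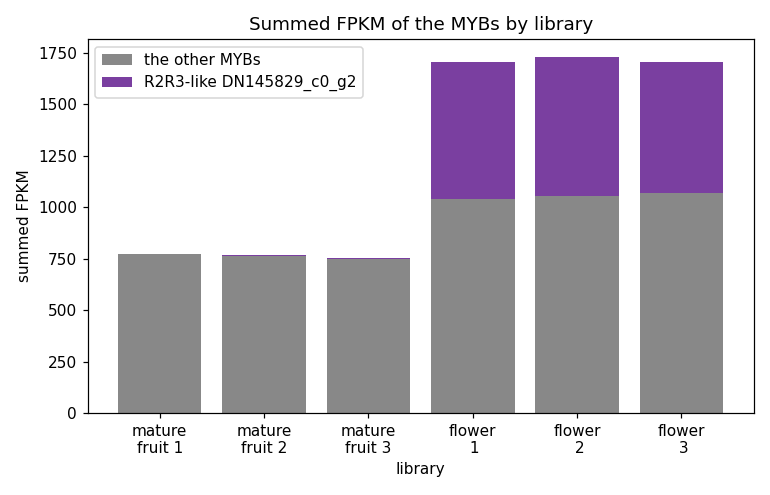
Summed FPKM of the 163 MYBs (y axis) in each mature fruit and flower library (x axis), with the share of the R2R3-like DN145829_c0_g2 in purple and all other MYBs in grey. The mature fruit sums lie at 753 to 773 and the flower sums at 1706 to 1730, and the grey parts alone also stand apart.

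The tissues shared 1 of their 5 leading MYBs. In mature fruit the most abundant was MYB4 (DN142862_c0_g1), which held 11.03% of the MYB sum there and ranked 112 among the MYBs of the flower. It was followed by MYB3R-3, MYB12, MYB308 (DN144022_c3_g4) and MYB-like X (DN144159_c2_g1). In flower the R2R3-like DN145829_c0_g2 led, and ranked 45 among the MYBs of the mature fruit. MYB-like X, the single-repeat ETC1 (DN146126_c4_g1), a MYB82-like (DN146459_c2_g1) and a MYB-like family protein (DN144924_c2_g5) came next. MYB-like X was among the leading 5 of both tissues, with 38.8, 29.8 and 31.7 FPKM in mature fruit, against 61.2, 59.7 and 60.3 FPKM in flower. Its mature fruit libraries were all below the flower libraries, but the log2 fold change of -0.86 (SE 0.08) was under the size needed for a call. The leading 5 MYBs made up 36.3% of the MYB sum in mature fruit and 50.2% in flower.

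The R2R3-like DN145829_c0_g2 led the MYBs of the flower and fell in the fruit, at 1.52, 3.29 and 4.18 FPKM in mature fruit, against 665, 677 and 640.2 FPKM in flower. All mature fruit libraries were at a few FPKM and all flower libraries far above them. Flower exceeded mature fruit 220.3-fold in the means (log2 fold change -7.85, SE 0.25, adjusted p = 2.68e-11). Its means were 159 ± 3.65 FPKM in leaf, 241 ± 17.03 in stem and 39.8 ± 3.53 in young fruit (SD, n = 3 each), so mature fruit was the lowest of the tissues. DN144924_c2_g5, the MYB-like family protein, had 12.8, 10.9 and 11.04 FPKM in mature fruit, against 35.2, 35.9 and 37.6 FPKM in flower, and was called lower (log2 fold change -1.64).

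Homologs of the phenylpropanoid repressors held the MYBs that rose most. AtMYB4 of Arabidopsis is a repressor of an early phenylpropanoid enzyme, cinnamate 4-hydroxylase, and AmMYB308 and AmMYB330 of snapdragon reduce phenolic acid and lignin formation when overexpressed in tobacco. MYB4 DN142862_c0_g1 had 63.96, 95.01 and 94.02 FPKM in mature fruit, against 0.266, 0.326 and 0.354 FPKM in flower. Library 1 was the lowest of the mature fruit libraries, yet the tissues were far apart. The mean was 267 times higher in mature fruit (log2 fold change 7.65, SE 0.20, adjusted p = 4.81e-12). Young fruit averaged 26.4 ± 2.12 FPKM, between flower and mature fruit, while leaf and stem averaged 0.473 ± 0.165 and 1.75 ± 0.198 FPKM (SD, n = 3 each). MYB308 DN144022_c3_g4 had 31.5, 46.6 and 44.9 FPKM in mature fruit, against 1.63, 1.81 and 2.02 FPKM in flower, without overlap. Its mean was 22.5 times higher in mature fruit (log2 fold change 4.40, SE 0.15, adjusted p = 5.43e-11), and young fruit stood at 51.01 ± 2.01 FPKM.

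Other members of these groups moved in both directions. Of 6 MYB4 homologs tested out of 9, 2 were higher and 2 lower, and the median log2 fold change was 0.13, or 0.27 over the 5 above 0 in both tissues. That is 33.3% in each direction, beside 13.4% higher and 44.4% lower over all MYBs tested. Over all unigenes tested the shares were 13.4% and 20.5%. The second MYB4 unigene that rose was DN146415_c3_g1, at 4.05, 2.32 and 2.33 FPKM in mature fruit, against 0.965, 1.35 and 1.17 FPKM in flower. It was not called without mature fruit library 1, where its log2 fold change was 0.95 against 1.21 with all libraries. MYB4 DN147056_c0_g1 fell, with 7.95, 4.07 and 3.84 FPKM in mature fruit, against 16.96, 15.4 and 15.9 FPKM in flower (log2 fold change -1.66, or -1.01 without mature fruit libraries 2 and 3). DN138607_c0_g1, also a MYB4 homolog, was called lower as well, at 0.566, 0.395 and 0.414 FPKM in mature fruit, against 2.53, 2.80 and 2.57 FPKM in flower. DN138619_c0_g3 lay near 1 FPKM in both tissues and was not called. Among the homologs of MYB308, MYB330 and MYB6-like, 10 of 11 were tested, 3 were higher (30%), 4 lower (40%), and the median was -0.74. These are to be read beside the same shares.

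In that group MYB6-like DN144339_c1_g4, annotated as a repressor, rose to 29.7, 32.4 and 31.6 FPKM in mature fruit, against 10.7, 10.9 and 11.9 FPKM in flower (log2 fold change 1.47, SE 0.08, adjusted p = 5.68e-09). MYB308-like DN144669_c3_g5 was at 0.996, 1.61 and 0.576 FPKM in mature fruit, against 0.105, 0 and 0.0725 FPKM in flower, and averaged 6.35 ± 0.458 FPKM in young fruit. It was called higher in mature fruit than in flower, although mature fruit was well below young fruit. Its log2 fold change depended on the pseudocount, being 2.83 with 0.1, 4.43 with 0.01 and 0.93, without a call, with 1. The largest fall was that of MYB330 DN146459_c0_g1, listed at 0, 0 and 0.0218 FPKM in mature fruit, against 5.43, 6.16 and 6.45 FPKM in flower. A second MYB330 unigene, DN144669_c3_g3, was at 0.0250, 0.142 and 0.166 FPKM in mature fruit, against 5.27, 5.26 and 6.77 FPKM in flower. MYB308 DN136168_c0_g1 fell less steeply, with 7.38, 7.13 and 4.78 FPKM in mature fruit, against 20.8, 20.6 and 22.7 FPKM in flower (log2 fold change -1.74). MYB308-like DN142694_c0_g3, at 0.261, 0.178 and 0.141 FPKM in mature fruit, against 2.78, 2.48 and 2.60 FPKM in flower, completed the 4 lower members. Thus unigenes named MYB308 stood on both sides of the comparison.

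The MYB3 and MYB5 homologs were few. AtMYB3 of Arabidopsis is another repressor of phenylpropanoid genes, and AtMYB5 takes part in seed coat and hair differentiation there. The best match gives DN147128_c3_g4 the name MYB3, but the study's table types it as R1R2R3, unlike the R2R3 AtMYB3. It rose to 28.9, 30.6 and 32.4 FPKM in mature fruit, against 13.00, 13.5 and 11.498 FPKM in flower (log2 fold change 1.27, SE 0.09, adjusted p = 8.55e-08), and mature fruit was the highest of the 5 tissues. MYB3 DN138619_c0_g2 had 0, 0 and 0.0462 FPKM in mature fruit, against 10.97, 11.1 and 13.1 FPKM in flower, and was called lower. The third MYB3 homolog, DN143039_c2_g1, had 0.115, 0.0433 and 0 FPKM in mature fruit and was listed at 0 in flower, without a call. Both MYB5 homologs were called lower. MYB5 DN145308_c4_g1 had 5.05, 4.29 and 3.56 FPKM in mature fruit, against 9.33, 9.33 and 9.39 FPKM in flower (log2 fold change -1.12), and without mature fruit library 3 its log2 fold change of -0.99 was not called. MYB5-like DN142862_c4_g2 was listed at 0 in all mature fruit libraries, against 1.37, 1.26 and 1.18 FPKM in flower.

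**Figure D3:**
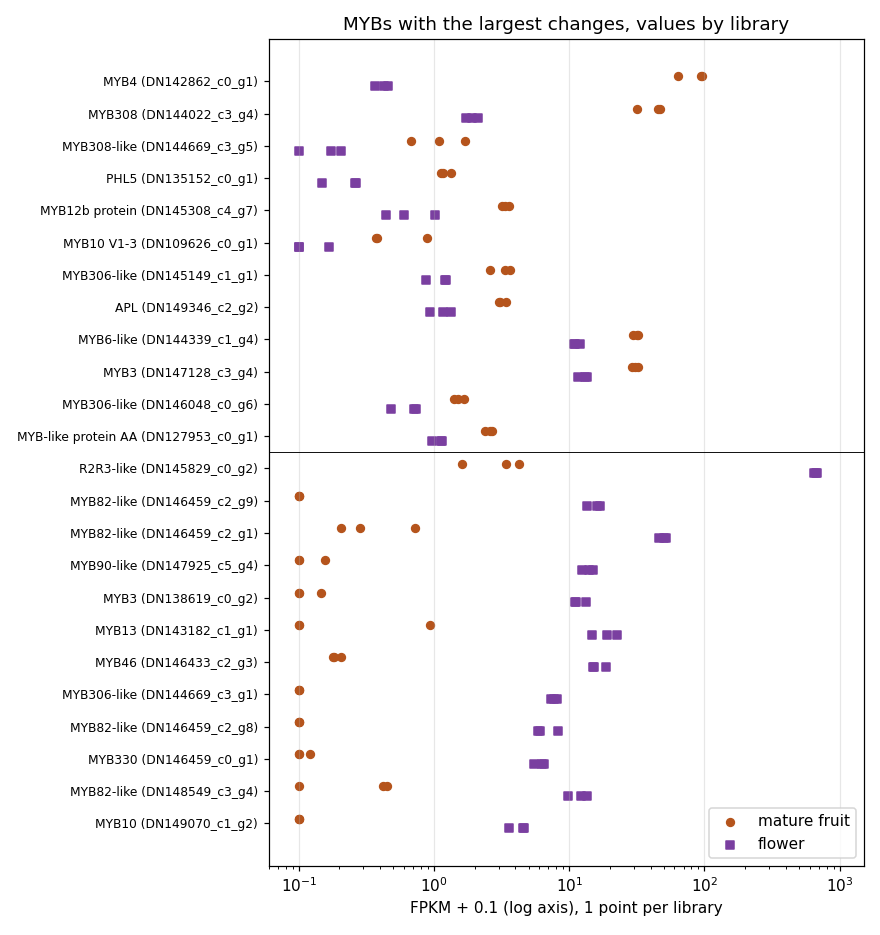
FPKM + 0.1 on a log axis for the 12 MYBs called higher (above the line) and the 12 called lower (below it) with the largest fitted changes, 1 point per library, mature fruit as circles above flower as squares. In every MYB shown, the 3 mature fruit points and the 3 flower points do not overlap, which was a condition for being shown; points at 0.1 are libraries listed at 0.

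Among the homologs of flavonol activators, MYB12 was abundant in both tissues. In Arabidopsis MYB11, MYB12 and MYB111 activate the first steps of flavonol synthesis. MYB12 DN111034_c0_g1 had 61.4, 60.9 and 54.4 FPKM in mature fruit, against 32.8, 34.01 and 31.8 FPKM in flower. The mature fruit libraries were all above the flower libraries, but the log2 fold change of 0.84 (SE 0.09) missed the size for a call, and young fruit was the highest tissue at 105 ± 9.71 FPKM. MYB12b DN145308_c4_g7 rose to 3.50, 3.08 and 3.26 FPKM in mature fruit, against 0.503, 0.343 and 0.920 FPKM in flower (log2 fold change 2.38, SE 0.27, adjusted p = 5.33e-06). MYB11 DN142862_c4_g4 fell to 0.146, 0.167 and 0.294 FPKM in mature fruit, against 3.87, 3.90 and 5.12 FPKM in flower (log2 fold change -3.88). With a pseudocount of 1 the log2 fold changes of MYB12b DN145308_c4_g7 and MYB11 DN142862_c4_g4 were 1.45 and -2.13, still called. MYB111 DN145308_c5_g1 was listed at 0 in all 6 libraries. In all, 1 of the 4 flavonol homologs was higher and 1 lower. That is 25% in each direction, beside 13.4% higher and 44.4% lower over all MYBs tested. Over all unigenes tested the shares were 13.4% and 20.5%.

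The anthocyanin activator homologs were mostly lower in the fruit. MYB10 of the rose family and MYB90 and MYB114 of Arabidopsis activate anthocyanin genes. Of 7 tested out of 8, 5 were called lower and 1 higher, with a median log2 fold change of -1.39, or -1.35 over the 6 above 0 in both tissues. The share called lower was 71.4%, beside 44.4% of all MYBs tested and 20.5% of all unigenes tested. MYB90-like DN147925_c5_g4 had 0, 0.0557 and 0 FPKM in mature fruit, against 14.004, 14.8 and 12.2 FPKM in flower, and the other tissues averaged less than 0.1 FPKM. MYB10 DN149070_c1_g2 was listed at 0 in every mature fruit library, against 4.46, 3.47 and 4.54 FPKM in flower. Both were thus expressed mainly in the flower among the 5 tissues. MYB114-like DN145802_c2_g12 fell to 0, 0.0745 and 0.0749 FPKM in mature fruit, against 2.87, 2.07 and 1.75 FPKM in flower, and its highest mean was 16.96 ± 5.99 FPKM in leaf. MYB114-like DN145308_c4_g6 (log2 fold change -1.39) and DN147278_c5_g2 (log2 fold change -1.32) fell less. The second of these was not called without mature fruit libraries 2 and 3, where its adjusted p in limma was 0.0627.

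Another MYB10 unigene went the opposite way at a low level. DN109626_c0_g1, named MYB10 V1-3, had 0.781, 0.279 and 0.270 FPKM in mature fruit, against 0, 0.0659 and 0 FPKM in flower. Mature fruit library 1 was the highest of the 3, all of them lay above the flower libraries, and the call was higher (log2 fold change 2.07, SE 0.36, adjusted p = 2.87e-04). This value depended on the pseudocount, being 4.35 with 0.01 and 0.48, without a call, with 1. DN30159_c0_g1, named MYB10 V1-1/V2, had 0.291, 0.144 and 0.140 FPKM in mature fruit, against 0.0483, 0.0460 and 0.0452 FPKM in flower, without a call. Summed over the 8 anthocyanin homologs, FPKM was 3.26 ± 0.94 in mature fruit and 26.9 ± 2.2 in flower (SD, n = 3 each).

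The R2R3 homologs of hair regulators held 9 MYBs that fell in the fruit. MYB82 and WER (WEREWOLF) of Arabidopsis act in the making of leaf hairs and in the patterning of root hairs. Of 12 tested out of 14, 9 were called lower and 1 higher, and the median log2 fold change was -2.82, or -3.25 over the 7 above 0 in both tissues. Lower calls thus made up 75%, beside 44.4% of all MYBs tested and 20.5% of all unigenes tested. All 9 lower members were MYB82-like. Those named DN146459_c2 share a Trinity component, a cluster of assembled transcripts that overlap in sequence, as do those named DN148549_c3. Their reads may have been divided, so the 9 may not be independent members. The most abundant, DN146459_c2_g1, had 0.182, 0.630 and 0.105 FPKM in mature fruit, against 49.7, 51.7 and 46.1 FPKM in flower, and flower exceeded mature fruit 161-fold in the means (log2 fold change -7.14, SE 0.32, adjusted p = 6.89e-10). It still averaged 26.1 ± 1.64 FPKM in young fruit. DN146459_c2_g9 was listed at 0 in mature fruit, against 15.9, 13.4 and 16.7 FPKM in flower, and DN146459_c2_g8 likewise, against 5.98, 5.74 and 8.16 FPKM in flower. MYB82-like DN148549_c3_g4 had 0.319, 0.345 and 0 FPKM in mature fruit, against 9.76, 12.03 and 13.4 FPKM in flower, and was at 11.1 ± 1.16 FPKM in young fruit. MYB82-like DN144568_c0_g4 had 0.609, 0.0615 and 0.250 FPKM in mature fruit, against 7.74, 9.18 and 9.08 FPKM in flower. The group summed to 2.66 ± 0.69 FPKM in mature fruit and 95.2 ± 1.8 FPKM in flower (SD, n = 3 each).

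The member that rose was WER-like DN145308_c4_g5, at 2.02, 1.23 and 1.43 FPKM in mature fruit, against 0.821, 0.608 and 0.579 FPKM in flower. Its call was lost without flower library 2 (limma adjusted p = 0.0136), flower library 3 (0.0145) or mature fruit library 1 (0.0169). MYB82-like DN143182_c1_g11, at 0.133, 0.299 and 0 FPKM in mature fruit, against 1.21, 1.12 and 0.744 FPKM in flower, lost its call of lower without flower library 1 or 2 or mature fruit library 1 or 3, with adjusted p-values of 0.0119 to 0.0269 in limma. The other lower members of the group kept theirs without each single library.

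Single-repeat homologs of ETC1 and ETC3, which inhibit leaf hair formation in Arabidopsis, were led by ETC1 DN146126_c4_g1. It fell to 11.9, 13.1 and 11.7 FPKM in mature fruit, against 49.3, 55.2 and 54.9 FPKM in flower, a log2 fold change of -2.11 (SE 0.06, adjusted p = 1.92e-11). Young fruit was higher than both at 89.7 ± 4.74 FPKM. Of the 5 tested, 2 (40%) were lower and none higher, which is near the 44.4% lower over all MYBs tested, beside 20.5% over all unigenes tested. The other lower one, ETC3 DN149700_c2_g3, had 1.52, 1.30 and 0.443 FPKM in mature fruit, against 3.74, 2.83 and 2.92 FPKM in flower, and was not called without flower library 1 (adjusted p = 0.0142 in limma). ETC3 DN144174_c0_g4 lay at 3.72, 6.95 and 5.71 FPKM in mature fruit, against 2.65, 2.44 and 3.23 FPKM in flower. It was not called at a log2 fold change of 0.92, but was called higher at 1.17 without mature fruit library 1, at 1.03 without flower library 3 and at 1.03 under median-of-ratios scaling.

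Of the homologs of regulators of floral organs, 6 fell in the fruit, but 4 of the 6 had a higher mean in stem or young fruit than in flower. MYB21, MYB24 and MYB108 of Arabidopsis act in stamen and petal maturation, and MYB305 of snapdragon activates phenylpropanoid genes in petals. Of 9 tested out of 10, 6 were lower in mature fruit and none higher, with a median log2 fold change of -1.93, or -2.33 over the 8 above 0 in both tissues. The lower share was 66.7%, beside 44.4% of all MYBs tested and 20.5% of all unigenes tested. This share depended on the pseudocount. With a pseudocount of 1 only MYB108 DN146459_c2_g7 kept its call of lower, at a log2 fold change of -2.07. The other lower members then had log2 fold changes of -0.57 to -0.999 and were not called. MYB108 DN146459_c2_g7 had 0.899, 0.282 and 0.431 FPKM in mature fruit, against 5.81, 5.11 and 5.21 FPKM in flower. MYB108-like DN138619_c0_g1 had 1.17, 1.31 and 1.20 FPKM in mature fruit, against 3.65, 3.04 and 3.67 FPKM in flower. The MYB21 unigenes DN148254_c1_g2 and DN141656_c0_g1 were both called lower, the first at 0.0285, 0 and 0 FPKM in mature fruit, against 1.08, 0.670 and 0.966 FPKM in flower. MYB24 DN148048_c1_g5 had 0.0321, 0 and 0.0715 FPKM in mature fruit, against 0.892, 0.673 and 0.765 FPKM in flower. The means of MYB21 DN141656_c0_g1 were 1.05 ± 0.122 FPKM in stem and 3.04 ± 0.199 FPKM in young fruit, against 0.990 ± 0.222 FPKM in flower (SD, n = 3 each). MYB21 DN148254_c1_g2 averaged 1.80 ± 0.446 FPKM and the MYB305-like DN138638_c0_g1 1.63 ± 0.119 FPKM in stem, and MYB108-like DN138619_c0_g1 averaged 4.46 ± 1.08 FPKM in young fruit (SD, n = 3 each). In the flower libraries themselves MYB21, MYB24 and the MYB305-like DN138638_c0_g1 were low, at 0.576 to 1.21 FPKM, and MYB108-like DN279740_c0_g1 was listed at 0. GAMYB (DN147282_c0_g1), known for anther development in cereals, had 5.63, 4.53 and 5.09 FPKM in mature fruit, against 4.67, 4.66 and 5.10 FPKM in flower, and the libraries of the tissues overlapped. MYB35-like DN146048_c0_g4 had 5.44, 5.99 and 4.998 FPKM in mature fruit, against 4.82, 5.07 and 5.23 FPKM in flower, without a call.

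Homologs of regulators of the secondary cell wall were few and mostly lower in the fruit. MYB46 of Arabidopsis is a master switch of cellulose, xylan and lignin deposition, and MYB63 activates lignin genes. All 5 homologs were tested, 4 were lower and 1 higher, and the median was -2.47. That is 80% lower, beside 44.4% of all MYBs tested and 20.5% of all unigenes tested, in a group of only 5. MYB46 DN146433_c2_g3 had 0.105, 0.0808 and 0.0802 FPKM in mature fruit, against 15.1, 14.95 and 18.5 FPKM in flower (log2 fold change -6.43, SE 0.13, adjusted p = 4.16e-13), and with a pseudocount of 1 the log2 fold change was -3.97. Stem was its highest tissue at 28.3 ± 1.58 FPKM, and young fruit was at 5.05 ± 0.492 FPKM. MYB46 DN142862_c4_g3 was listed at 0 in mature fruit, against 1.41, 1.59 and 1.83 FPKM in flower. MYB86-like DN145021_c0_g7 fell to 1.99, 1.01 and 1.65 FPKM in mature fruit, against 7.55, 9.70 and 9.15 FPKM in flower (log2 fold change -2.47). MYB86 DN145308_c1_g1 (log2 fold change -1.05) was not called without mature fruit library 2 or under median-of-ratios scaling, at -0.93 in both. It was also not called with a pseudocount of 1, at -0.84, or in the test against a fold of 2. MYB63 DN147741_c0_g1, the one that rose, had 0.167, 0.0946 and 0.0925 FPKM in mature fruit and was listed at 0 in all flower libraries. Without mature fruit library 1 it was not called (adjusted p = 0.0102 in limma), nor with a pseudocount of 1 or in the test against a fold of 2.

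Homologs of regulators of wax, suberin and the Casparian strip, here called barrier homologs, were mixed. MYB36 of Arabidopsis directs the Casparian strip of the root and MYB92 promotes suberin. Of 11 tested out of 14, 4 were lower and 2 higher, with a median of -0.45, or -0.40 over the 8 above 0 in both tissues. The lower share of 36.4% lay between the 20.5% of all unigenes tested and the 44.4% of all MYBs tested. MYB92 DN66535_c0_g1 was the most abundant, with 13.5, 14.3 and 14.5 FPKM in mature fruit, against 33.9, 31.7 and 33.3 FPKM in flower (log2 fold change -1.22, SE 0.08, adjusted p = 1.52e-08). MYB36-like DN149746_c2_g7 fell to 1.57, 1.41 and 1.40 FPKM in mature fruit, against 11.02, 16.7 and 16.51 FPKM in flower. The MYB306-like unigenes split between the directions. DN144669_c3_g1 was listed at 0 in mature fruit, against 7.60, 8.04 and 7.27 FPKM in flower, and averaged at most 0.103 FPKM in each other tissue. DN144626_c1_g2 had 0.433, 0.109 and 0.481 FPKM in mature fruit, against 5.42, 6.25 and 6.12 FPKM in flower. DN145149_c1_g1 rose to 3.23, 3.55 and 2.49 FPKM in mature fruit, against 1.13, 0.771 and 1.11 FPKM in flower (log2 fold change 1.53), and DN146048_c0_g6 to 1.56, 1.40 and 1.31 FPKM in mature fruit, against 0.639, 0.383 and 0.614 FPKM in flower. The call of DN146048_c0_g6 was lost without mature fruit libraries 2 and 3 (adjusted p = 0.0121 in limma).

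**Figure D4:**
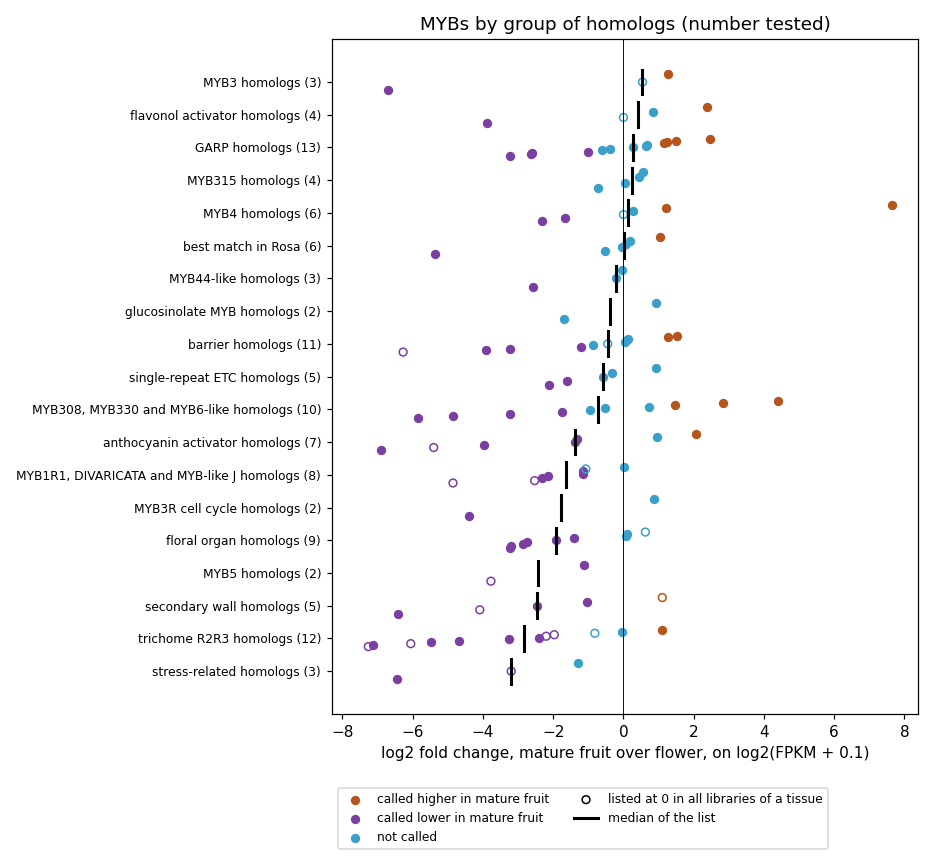
Log2 fold change of mature fruit over flower on log2(FPKM + 0.1) (x axis) for each MYB tested, by group of homologs (y axis, with the number tested), ordered by the median (black bar). Open points are MYBs listed at 0 in all libraries of a tissue, whose position depends on the pseudocount. The trichome R2R3 homologs have a median of -2.82 over 12 tested. The MYB3 bar rests on DN143039_c2_g1, an open point, and the median of the other 2 is -2.71.

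GARP homologs, a group with a single MYB-like domain that includes the phloem regulator APL, the flowering repressor EFM and the PHL proteins related to phosphate starvation response, were split evenly. Of 13 tested out of 14, 4 were higher and 4 lower, and the median was 0.27. That is 30.8% in each direction, beside 13.4% higher and 44.4% lower over all MYBs tested. Over all unigenes tested the shares were 13.4% and 20.5%. EFM DN143137_c2_g1 fell to 3.13, 2.31 and 2.39 FPKM in mature fruit, against 25.1, 25.3 and 25.3 FPKM in flower (log2 fold change -3.24, SE 0.10, adjusted p = 1.60e-11). APL DN142101_c1_g2 fell to 3.59, 5.22 and 4.87 FPKM in mature fruit, against 29.1, 28.2 and 27.6 FPKM in flower (log2 fold change -2.62). EFM DN127588_c0_g1 was lower too. EFM DN145164_c1_g1, at a log2 fold change of -1.02, was not called without mature fruit library 2 (-0.94) or 3 (-0.98) or under median-of-ratios scaling (-0.91).

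On the higher side of the GARP group, PHL5 DN135152_c0_g1 had 1.24, 1.02 and 1.08 FPKM in mature fruit, against 0.0497, 0.165 and 0.162 FPKM in flower (log2 fold change 2.47), but with a pseudocount of 1 the log2 fold change was 0.91, without a call. APL DN132443_c0_g1 rose to 12.03, 8.88 and 8.89 FPKM in mature fruit, against 4.24, 4.20 and 3.79 FPKM in flower, and young fruit was higher still at 29.7 ± 1.80 FPKM. APL DN149346_c2_g2 and PHL8 DN129876_c0_g1 also rose, at log2 fold changes of 1.49 and 1.15. The call of DN149346_c2_g2 was lost without mature fruit libraries 2 and 3 (adjusted p = 0.0300 in limma). The most abundant member, APL DN139053_c0_g1, had 27.00, 28.8 and 29.3 FPKM in mature fruit, against 18.05, 18.4 and 16.9 FPKM in flower. EFM DN146463_c1_g1 had 18.2, 17.5 and 16.4 FPKM in mature fruit, against 11.49, 10.8 and 10.9 FPKM in flower. Neither overlapped between tissues, and both were under the size for a call (log2 fold changes 0.67 and 0.65).

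Homologs of MYB1R1, DIVARICATA and MYB-like J were mostly lower in the fruit. DIVARICATA shapes the ventral petal in snapdragon, and MYB1R1 is known from the drought response of potato. Of the 8, all tested, 6 were lower, with a median of -1.65, or -1.15 over the 5 above 0 in both tissues. That is 75% lower, beside 44.4% of all MYBs tested and 20.5% of all unigenes tested. None was higher, which for 8 members is close to the 13.4% over all MYBs and over all unigenes. MYB1R1 DN148732_c1_g1 had 6.01, 5.66 and 5.76 FPKM in mature fruit, against 26.1, 26.2 and 25.8 FPKM in flower (log2 fold change -2.15, SE 0.08, adjusted p = 7.08e-11). MYB1R1 DN133642_c0_g1 had 14.9, 11.1 and 11.97 FPKM in mature fruit, against 28.3, 29.1 and 26.5 FPKM in flower, and without mature fruit libraries 2 and 3 its log2 fold change of -0.90 was not called. DIVARICATA DN146332_c2_g2 overlapped between the tissues, with 16.2, 17.3 and 17.4 FPKM in mature fruit, against 17.02, 16.7 and 16.6 FPKM in flower (log2 fold change 0.02, SE 0.07). MYB-like J DN128191_c0_g1, at a log2 fold change of -1.15, lost its call without mature fruit library 1 or any one flower library, with adjusted p-values of 0.0104 to 0.0180 in limma. MYB-like J DN58257_c0_g1 was listed at 0 in mature fruit, against 2.63, 2.94 and 2.80 FPKM in flower.

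Both homologs of the MYB3R cell cycle regulators were expressed, and 1 of them fell. MYB3R-1 of Arabidopsis and tobacco relatives regulate genes of the G2 to M transition. The best match gives DN148161_c1_g2 the name MYB3R-1, but the study's table types it as R2R3. MYB3R-1 DN148161_c1_g2 had 0.558, 1.19 and 0.997 FPKM in mature fruit, against 21.04, 21.04 and 19.8 FPKM in flower. The mean was 22.5 times higher in flower (log2 fold change -4.41, SE 0.24, adjusted p = 4.35e-09). MYB3R-3 DN144228_c3_g1 had 71.6, 55.05 and 54.1 FPKM in mature fruit, against 32.3, 32.2 and 33.6 FPKM in flower. The mature fruit libraries were all above the flower libraries, without a call at a log2 fold change of 0.87. Library 1 was the highest, and with it as the only mature fruit library the log2 fold change was 1.13 and the call higher.

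Of 3 stress-related homologs tested 2 fell, and of 3 MYB44-like homologs 1 fell, with none higher in either group. The shares over all MYBs tested were 44.4% lower and 13.4% higher, and over all unigenes tested 20.5% and 13.4%. Groups of 3 are too small to be set apart from these shares. MYB13 and MYB15 of Arabidopsis respond to cold and to defence signals, and MYB44 responds to abscisic acid. MYB13 DN143182_c1_g1 had 0, 0.840 and 0 FPKM in mature fruit, against 14.7, 18.8 and 22.4 FPKM in flower, so it was listed at 0 in 2 of 3 fruit libraries. The cold- and ABA-responsive homolog DN146459_c2_g4 was listed at 0 in mature fruit and in every library of leaf, stem and young fruit, against 0.665, 1.28 and 0.629 FPKM in flower. It passed the filter through the 3 flower libraries alone, so without any one of them it was not tested. MYB15 DN137108_c0_g1 was low in both tissues, at 0.113, 0 and 0 FPKM in mature fruit, against 0.178, 0.118 and 0.417 FPKM in flower, without a call. MYB44-like DN144824_c3_g1 fell to 1.47, 0.999 and 1.06 FPKM in mature fruit, against 8.73, 7.21 and 6.57 FPKM in flower (log2 fold change -2.58). MYB44-like DN143203_c0_g1 had 17.6, 17.5 and 18.4 FPKM in mature fruit, against 17.3, 18.7 and 18.95 FPKM in flower, with overlap and a log2 fold change of -0.04 (SE 0.06). MYB44-like DN99221_c0_g1 was also not called, at 16.1, 13.7 and 12.7 FPKM in mature fruit, against 17.00, 15.7 and 16.9 FPKM in flower.

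Of 7 MYBs whose best match is itself a rose sequence, 6 were tested. The putative MYB DN145308_c4_g3 fell to 0.623, 0.525 and 0.473 FPKM in mature fruit, against 27.3, 26.5 and 25.4 FPKM in flower (log2 fold change -5.38, SE 0.14, adjusted p = 4.20e-12). The putative MYB DN143733_c1_g1 rose to 21.2, 20.5 and 17.6 FPKM in mature fruit, against 9.42, 10.1 and 8.98 FPKM in flower, at a log2 fold change of 1.05 (SE 0.09). Without mature fruit library 1 the value was 0.99 and not called. MYB DN142723_c6_g2 lay at 16.2, 14.3 and 15.2 FPKM in mature fruit, against 24.6, 22.4 and 19.6 FPKM in flower, without a call. None of the 4 homologs of MYB315 was called. The most abundant, DN131966_c0_g1, had 7.71, 7.36 and 8.81 FPKM in mature fruit, against 6.07, 6.10 and 5.21 FPKM in flower (log2 fold change 0.45). DN143393_c4_g1 had 3.71, 2.75 and 3.54 FPKM in mature fruit, against 1.59, 3.14 and 2.19 FPKM in flower. The glucosinolate homologs MYB51-like DN17982_c0_g1 and MYB28-like DN124843_c0_g1 were each below 1 FPKM in the mean of both tissues and not called.

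Over all MYBs tested 13.4% were higher and 44.4% lower, and over all unigenes tested 13.4% and 20.5%. Of the 32 MYBs in none of the groups, 27 were tested, with 2 higher (7.4%), 8 lower (29.6%) and a median of -0.86. The higher ones were MYB-like AA DN127953_c0_g1, at 2.58, 2.28 and 2.52 FPKM in mature fruit, against 0.858, 1.02 and 1.04 FPKM in flower, and MYB-related protein 1-like DN145863_c0_g1, at 4.12, 3.66 and 3.12 FPKM in mature fruit, against 1.93, 1.20 and 1.48 FPKM in flower. The call of DN145863_c0_g1 was lost without flower library 2 or 3 or mature fruit library 1 or 2, with adjusted p-values of 0.0144 to 0.0221 in limma. That of DN127953_c0_g1 was lost without mature fruit libraries 2 and 3 (adjusted p = 0.0121 in limma).

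The levels in the other tissues place these changes in context, as a description without a test. Of the 19 MYBs higher in mature fruit than in flower, mature fruit had the highest mean of the 5 tissues in 9 and young fruit in 8. Of the 63 lower MYBs, flower had the highest mean in 28, leaf in 17, stem in 14 and young fruit in 4. The call itself keeps mature fruit from leading a lower MYB and flower from leading a higher one. The same counts over all called unigenes were not made, so these are not read as a trait of the MYBs. The young fruit mean lay between those of mature fruit and flower in 4 of the 19 higher and in 43 of the 63 lower MYBs, and above both in 10 and 12. MYB4 DN142862_c0_g1 was thus an ordered case, whereas MYB308 DN144022_c3_g4 was higher in young fruit than in mature fruit, and the ETC1 DN146126_c4_g1 that fell was highest in young fruit.

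**Figure D5:**
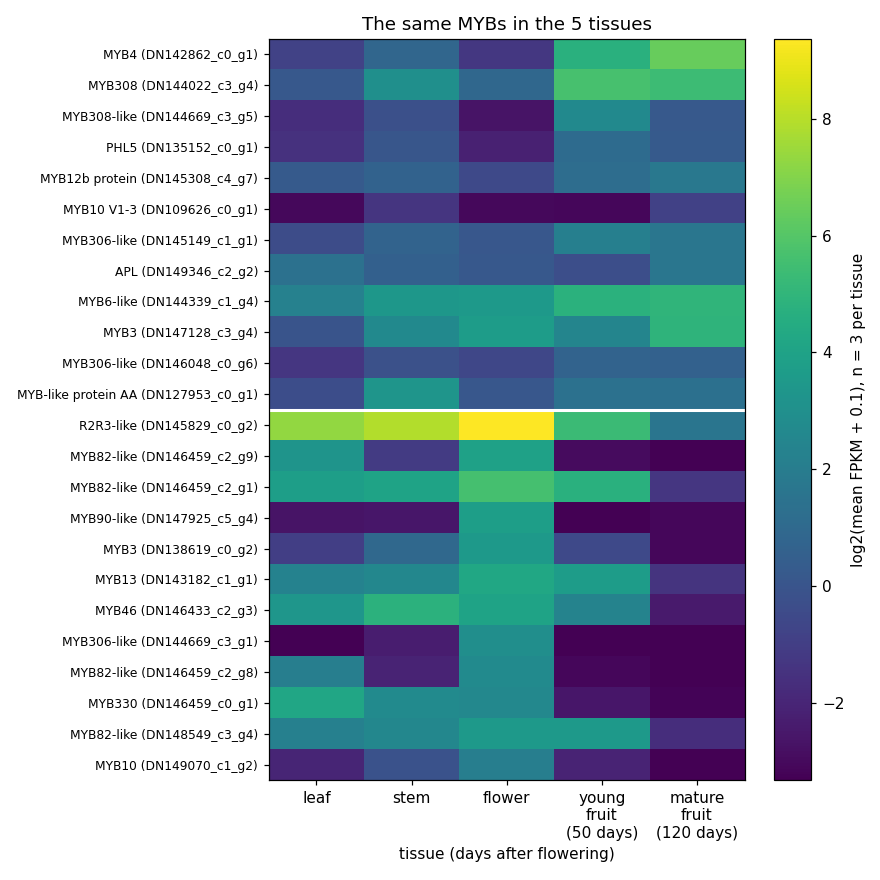
Log2(mean FPKM + 0.1) (colour, n = 3 per tissue) of the 12 MYBs higher (above the white line) and the 12 lower (below it) in mature fruit than in flower, across the 5 tissues (x axis). MYB90-like DN147925_c5_g4 and MYB306-like DN144669_c3_g1 are bright in flower alone, whereas R2R3-like DN145829_c0_g2 is bright in flower, stem, leaf and young fruit, in falling order.

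Some MYBs came from one Trinity component, a cluster of assembled transcripts that overlap in sequence, so reads may have been divided among them. There were 57 such MYBs in 19 components, and their separate levels are less certain. In component DN146459_c2 the 5 MYB82-like unigenes tested and MYB108 were called lower, and so was the cold- and ABA-responsive homolog, which had passed the filter through the flower libraries alone. In component DN142862_c4 all 3 were lower, namely MYB5-like, MYB46 and MYB11. In 2 components members went in both directions. DN144669_c3 held the higher MYB308-like g5 beside the lower MYB330 g3 and MYB306-like g1. DN145308_c4 held the higher MYB12b g7 and WER-like g5 beside the lower MYB5 g1, putative MYB g3 and MYB114-like g6.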

How the data were processed

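Mature fruit and flower were compared in 3 RNA-seq libraries each, grouped by the tissue in the sample labels. Reads were trimmed with Trimmomatic and quantified with RSEM, per the submitters' processing notes. Per the methods of the study, the reads were assembled with Trinity and aligned with Bowtie2. No version of these tools is stated there. The authors deposited FPKM, 1 value per unigene and library for 63727 unigenes, normalised to transcript length and mapped fragments. FPKM hold no counts, so depth is not given per value, no counting interval can be stated, and 0 means only that a unigene is listed at 0.

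From these, log2(FPKM + 0.1) was fitted in limma 3.58.1 (R 4.3.3) as 1 mean for each of the 5 tissues, all 15 libraries sharing the estimate of spread and its trend with expression level. Fold changes are on this scale, which understates the changes of low unigenes. The filter, above 0.1 FPKM in 3 or more libraries, removed 12552 unigenes, 21 of them MYBs. P-values were adjusted after Benjamini-Hochberg over all unigenes tested. Unigenes were called at an adjusted p up to 0.01 with a log2 fold change of at least 1 in size. Values per library were compared by two-sided exact permutation tests (scipy 1.17.1). Python 3.11.15 with numpy 2.4.6, pandas 2.3.3 and, for figures, matplotlib 3.10.9 did the rest. The script for the fit was tested on simulated data.

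The members, the MYB groups (20 lists made from best-match names, with 32 MYBs in none), the tests and the rule for named genes were chosen with earlier results of these data known. The rule took up to 12 MYBs called higher and 12 lower with the largest change and no overlap, up to 3 of each group with the highest FPKM, the 5 most abundant of each tissue, the 12 with qRT-PCR primers, the 3 with an insect match, and 2 unnamed unigenes in each direction. Further MYBs were named after their values were seen, to complete a group. Alternatives were other pseudocounts, filters, scalings, thresholds and spreads, a replicate block, and leaving out libraries. The qRT-PCR values and the other annotation tables are not analysed here.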

Additional observations from a re-analysis of the deposited data

How the results depend on the processing

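The counts of called unigenes and MYBs stayed within 1.5 times of those reported under other filters, median-of-ratios scaling, an adjusted p of 0.05, no minimum fold change, no trend of the spread, a pseudocount of 0.01 and a fit of the 6 libraries alone. With a pseudocount of 1, 10613 unigenes were called (4330 higher, 6283 lower) and 53 MYBs (8 higher). With a test against a fold of 2, 10477 unigenes were called (3971 higher, 6506 lower) and 54 MYBs (6 higher). Leaving out each of the 15 libraries in turn gave 15438 to 17482 unigenes (5793 to 6943 higher, 9521 to 10539 lower) and 77 to 82 MYBs (15 to 19 higher, 60 to 63 lower). Of the 82 called MYBs, 44 lost it under none of the 27 alternatives that tested them, 16 of the 60 uncalled ones were called under at least 1, and no called MYB changed direction. The ratio of unigenes per library, mature fruit over flower, was 0.970 at 1 FPKM (0.959 to 0.977 without single libraries), 1.01 above 0 and 0.914 at 10 FPKM. The ratio of the share held by abundant unigenes was 1.11 for the leading 100 (1.08 to 1.17 without single libraries) and 1.47 for the leading 10. The ratio of MYB sums was 0.446 (0.443 to 0.449 without single libraries) and 0.723 without DN145829_c0_g2. Unigenes above 0 in mature fruit and at 0 in flower numbered 3408 to 7575 without single libraries and 565 at 1 FPKM, and those of the reverse kind 5050 to 5447 and 968. Leaving out a library can only raise such counts of unigenes above 0. The number 7575 arose without mature fruit library 1, and by definition it takes in the 2792 unigenes above 0 in libraries 2 and 3 alone. The cause of the other changes was not tested. For libraries of equal replicate number, the correlations of their deviations from the tissue means were 0.0319, 0.00026 and -0.00080. Values near 0 over all unigenes tested cannot exclude a pairing that shows in few of them. With the replicate block, 17144 unigenes and 82 MYBs were called. FPKM carry no read counts, so the depth behind low values is unknown, and many MYBs under 1 FPKM lie near the pseudocount.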

Other observations

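The MYBs gave a measure of how alike the libraries of a tissue were. Over the 67 MYBs with a mean of at least 1 FPKM in mature fruit, the median absolute difference in log2(FPKM + 0.1) was 0.26 between mature fruit libraries 1 and 2, 0.26 between 1 and 3 and 0.09 between 2 and 3. Over the 94 MYBs with such a mean in flower, it was 0.12, 0.15 and 0.12 for the same pairs of flower libraries. Mature fruit library 1 lay above libraries 2 and 3 for 44 of the 67 MYBs and below them for 16. MYB4 DN142862_c0_g1 and MYB308 DN144022_c3_g4, the leading MYBs that rose, were among those in which library 1 was the lowest.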
